A study of Arabidopsis thaliana with 6 samples.

Results

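WDR5A is a WD40-repeat protein that forms part of the COMPASS-like complexes, which methylate lysine 4 of histone H3. Such complexes are best known at the starts of transcribed genes. In the compact genome of Arabidopsis thaliana most genes have close neighbours, and regulatory DNA is mostly found just outside genes, though some plant genes are controlled from several kilobases away. The remodelling ATPase PICKLE (PKL), of the CHD3 class, keeps embryonic genes repressed in seedlings. The regions described here are the places far from any protein-coding gene at which HA-tagged WDR5A was called in seedlings of a pkl background.

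Chromatin from whole seedlings, taken at 9 days and kept under constant white light, was immunoprecipitated with an antibody to HA and sequenced. The libraries fall into 3 described as WDR5A-HA_pkl-IP and 3 as WDR5A-HA_pkl-input, and all 6 carry the genotype label WDR5A-HA_pkl. Titles of the same libraries read PKL_WT (IP) and PKL_jaw-5D (input), against the descriptions. Both the bait and the genotype therefore rest on the descriptions and the genotype label. Nothing in the labels gives the promoter that drives the tagged protein or the pkl allele, and no wild-type PKL or untagged line was analysed here. The design text calls the replicates biological. Each of the 3 IP libraries has 1 summit list, with 10864, 10408 and 10826 summits for replicates 1, 2 and 3. Read numbers behind the summits are unknown, and −log10 q depends on read depth besides enrichment, so groups and regions were compared within each list. The spread of a region over the lists holds their difference in scale as well.

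The regions were chosen by their calls and their position. Summits of the 3 lists at most 250 bp apart were joined, groups holding a summit of every list were kept, and a group was a member if its median summit lay more than 1000 bp from every protein-coding gene and outside non-coding RNA genes. This gave 801 distant intergenic regions out of 6684 reproducible regions (12.0%). Each of the 801 held exactly 3 summits, 1 of each list. Their number and their distance from genes are therefore fixed by the rule, while their strength was not used beyond the call itself.

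The strongest distant region, at position 525379 of chromosome 4 (TAIR10), had a −log10 q of 101, 94.5 and 90.2 in replicates 1, 2 and 3. It ranked 7th among all 6684 regions by mean strength. It lay 1130 bp from WRKY22, a WRKY transcription factor gene of defence signalling, and 2212 bp from AT4G01245 on the other side. Neither gene had a reproducible region of its own, meaning one in the gene or within 500 bp of it.

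Next came a region at position 26100587 of chromosome 5, with 81.8, 77.9 and 81.2 in the 3 lists, 1231 bp from the homeodomain-leucine zipper gene HB5. HB5 had its own region at 24.9 ± 5.81 (mean ± SD over the 3 lists, as throughout), lower than the distant one in each list. A region at position 24887081 of chromosome 5 reached 69.2, 82.6 and 85.9. Its neighbours are ML1 (AT5G61960, a MEI2-like RNA-binding protein gene), 2229 bp away, and AT5G61970 at 1515 bp.

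Between AT5G25210 and KNAT3, a class II KNOX homeobox gene, the strength was 81.1, 57.7 and 64.5 at position 8732048 of chromosome 5, 3896 bp from KNAT3. Between DWF4, which encodes a hydroxylase of brassinosteroid synthesis, and the spliceosomal gene U1-70K it was 78.4, 62.0 and 59.2, at position 18822080 of chromosome 3. That summit lay 4675 bp from DWF4 and 4080 bp from U1-70K.

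LBD37, a LOB-domain gene of nitrogen responses, stood 2546 bp from a region with 66.4, 55.5 and 57.8 at position 26901320 of chromosome 5. On the other side of that region AT5G67411 was nearer, at 1584 bp, and had its own region at 4.17 ± 1.13. DFL1, a GH3-type gene whose product conjugates auxin to amino acids, stood 1136 bp from one with 69.9, 51.2 and 52.2 at position 22134824 of chromosome 5. LBD37 differed from most genes here in having a strong region of its own, at 49.4 ± 14.9, while DFL1 had none.

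The list of the 20 strongest went on with regions beside the RING-type gene BRG1 (68.4 ± 12.1), the EXORDIUM-like gene EXL3 (61.7 ± 4.70), AT5G03370 (61.4 ± 1.90), and between AT5G19090 and AT5G19100 (55.9 ± 9.53). Those beside EXO, a cell expansion gene that responds to brassinosteroid (53.4 ± 16.0), AT5G60680 (53.2 ± 5.33) and the trichome zinc finger gene GIS (52.9 ± 2.97) followed. At EXL3 and GIS the gene on the other side was nearer, AT5G51560 at 2258 bp and AT3G58090 at 1884 bp. Between GATA13 and the auxin response factor gene ARF10 the mean was 50.2 ± 8.24. The remaining ones lay by the transporter gene OPT9 (49.7 ± 8.57), the repressor gene ERF8 (49.6 ± 3.33) and the homeodomain-leucine zipper gene HAT1 (49.5 ± 7.25). The last pair lay between PID2 and BAS1, a gene for a brassinosteroid-inactivating P450 (48.6 ± 7.85), and between RCD1 and the KANADI gene KAN2 of leaf polarity (47.9 ± 7.44). Of these 20 regions the one at EXO had the highest SD, with 69.5, 53.2 and 37.4 in replicates 1, 2 and 3.

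**Figure D1:**
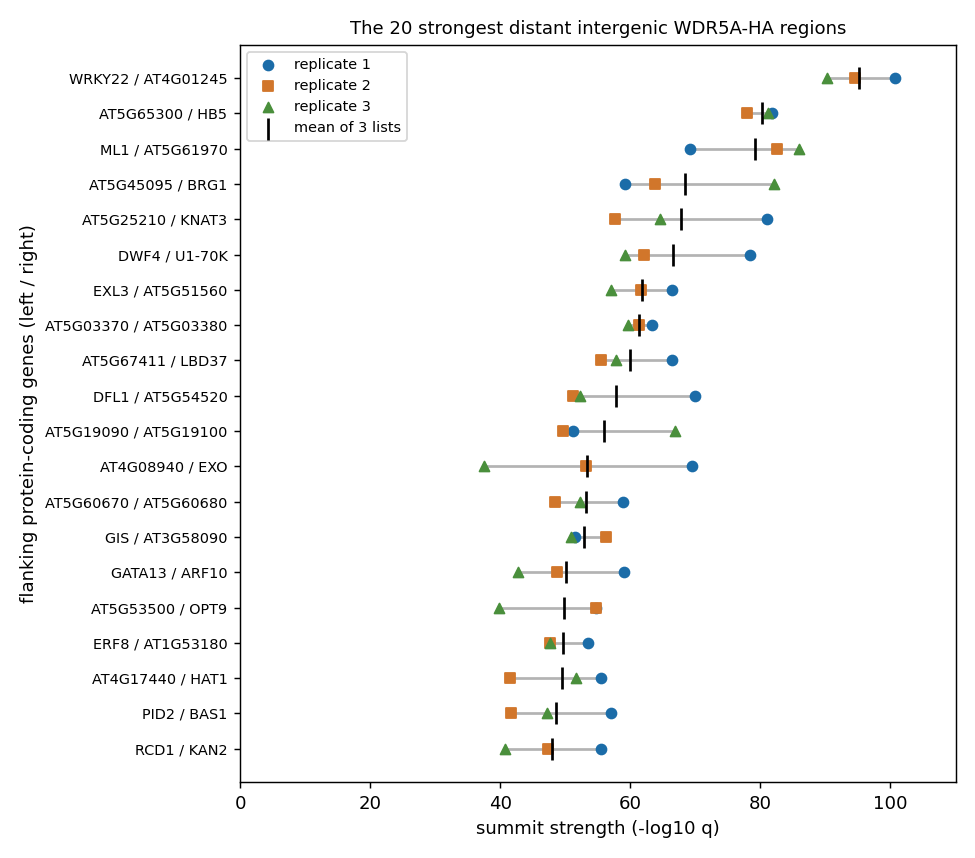
Summit strength (−log10 q, horizontal axis) of the 20 strongest distant intergenic regions, named by the protein-coding genes to the left and right, with 1 point per replicate and a bar at the mean of the 3 lists. The means run from 95.2 beside WRKY22 to 47.9 between RCD1 and KAN2, and the SD is highest at EXO (69.5, 53.2 and 37.4).

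Among the 20, 18 were among the 100 strongest of all reproducible regions, and they are all the distant regions found there. Chromosome 5 held 11 of the 20, against 179 of all 801 distant regions and 1522 of all 6684 reproducible regions. The 3 summits of each of the 20 spread over 10 to 78 bp, in gaps between protein-coding genes of 3341 to 17827 bp. The 20 regions have 40 flanking genes, of which 23 had a region of their own. For 22 of these 23 the gene's own region was weaker than the distant one in each of the 3 lists, and LBD37, whose own region was as high as the distant one in replicate 1, was the exception. The 23 own regions had means from 3.93 to 49.4 and a median of 15.9. Since the 20 were picked for high strength, this is a description of them and not of distant regions in general.

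Over all 801 regions the median strength was 12.0, 10.5 and 11.3 in replicates 1, 2 and 3, against 9.62, 8.34 and 8.80 over the 5883 other reproducible regions. The distant regions were higher in 3 of 3 lists, by a mean of 2.34 ± 0.185. The exact sign-flip permutation test gave p = 0.25, the smallest that 3 lists allow. Mean strengths over the 3 lists ran from 2.02 to 95.2, with 157 regions above 20 and 67 below 5. When only the stronger part of each list was used (summits no weaker than its median), which removes the weak regions of both groups, the difference was 0.483 over 505 distant regions, and with summits of at least 5 it was 1.22.

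Strength by position formed a graded order that was the same in each list. The median averaged 11.3 ± 0.735 over the lists in distant intergenic regions and 11.6 ± 0.671 in the 84 regions as far from genes but inside non-coding RNA genes. It was 10.4 ± 0.471 at 500 to 1000 bp outside protein-coding genes (upper bounds included, here and below), 9.39 ± 0.772 at up to 500 bp and 8.23 ± 0.621 inside them. The distant class was below the non-coding RNA class in 3 of 3 lists, with 12.0, 10.5 and 11.3 against 12.2, 10.8 and 11.7. By the median of the regions' mean strengths the order of these classes was turned, at 11.29 against 11.22. At the limit itself, the 9 members at most 10 bp beyond it had mean strengths from 6.31 to 29.8 with a median of 9.48. The 5 regions less than 10 bp short of it, outside the definition, ran from 6.50 to 30.6 with a median of 13.4. The strongest of the 9 lay beside HAM4 and the strongest of the 5 beside AT5G51845. The other members at the limit lay beside AT1G72460, AT3G28040, IQD3, ECA3, DMP2, AT5G12340, MNP and FRA1.

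**Figure D2:**
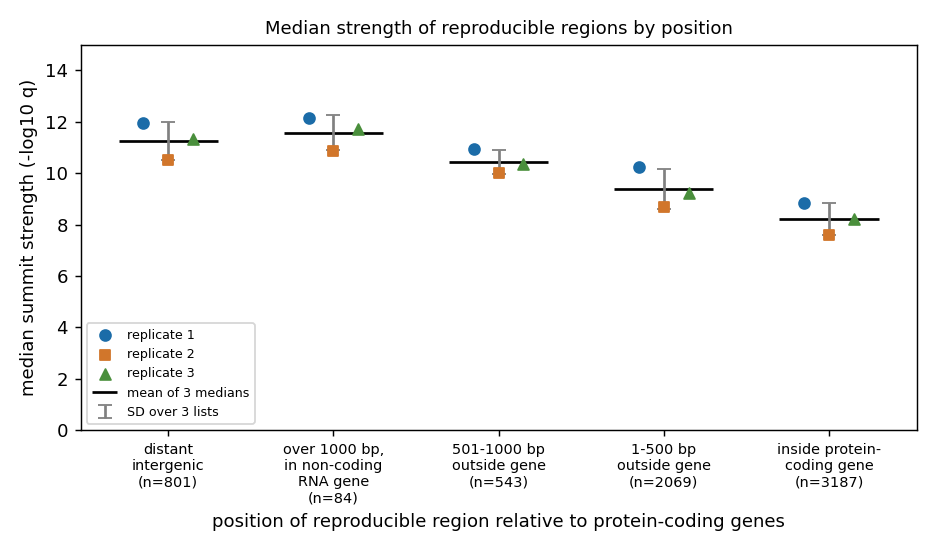
Median summit strength (−log10 q) of reproducible regions in 5 positions relative to protein-coding genes, with 1 point per replicate, a line at the mean of the 3 medians and bars of 1 SD over the lists. The mean is 11.3 in distant intergenic regions and 8.23 inside genes, and the lists keep the same order of positions.

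Among the strongest 10% of all regions by mean strength (668 of 6684, 9.99%) there were 113 distant ones, 14.1% of the 801, against 9.43% of the other regions. The classes most like them had shares as high, with 14.5% at 500 to 1000 bp outside genes and 17.9% in the distant non-coding RNA genes, so this share was not particular to distant regions. Among the weakest 10% there were 41 (5.12%), against 627 of the others (10.7%) and 4.42% at 500 to 1000 bp outside genes. The 100 strongest regions held 18 of the 801 distant ones, against 82 of the 5883 others. They held 7 of the 543 at 500 to 1000 bp outside genes and 6 of the 84 in the distant non-coding RNA genes. Distant regions are 12.0% of all reproducible regions.

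The summits of a distant region spread over a median of 45 bp, from 1 to 330 bp, against 46 bp at 500 to 1000 bp outside genes, 45.5 bp in the distant non-coding RNA genes, 67 bp inside genes and 60 bp over the other regions as a whole. Strengths in pairs of lists had Spearman coefficients of 0.762 to 0.795 across the 801 regions. These regions are not replicates and share their libraries.

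The share of summits found in all lists was higher far from genes than elsewhere, in each of the 3 lists. Of all distant intergenic summits, whether shared or not (1119, 1085 and 1148 in the 3 lists), 70.2%, 72.9% and 69.3% were matched in each of the other lists by a summit at most 250 bp away. Elsewhere, 59.1%, 62.0% and 59.4% of 9745, 9323 and 9678 summits were. The difference was 10.6 ± 0.667 percentage points and had the same sign in 3 of 3 lists (exact sign-flip permutation p = 0.25, the smallest possible). With a limit of 500 bp to genes the difference was 11.2 points, and with 2000 bp it was 10.5. Summits at 500 to 1000 bp outside genes were not set apart, so the higher share is not shown to be particular to distant summits. Counted as linked groups, 801 of 1467 distant ones held all 3 lists (54.6%), against 5883 of 13923 elsewhere (42.3%) and 43.4% of all 15390 groups. A further 290 distant groups held 2 lists and 376 held 1.

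Distant summits are stronger, and agreement grows with strength, so the shares were also set side by side within strength quintiles of each list, numbered 1 (weakest) to 5. In quintile 5, 97.8% ± 0.515 of distant summits had both partners, against 92.1% ± 0.274 of the others, a difference of 5.78 ± 0.332 points. In quintile 4 the shares were 83.8% ± 2.74 and 80.5% ± 1.40. In quintile 2 the distant share was lower in 3 of 3 lists, at 40.5% ± 2.46 against 43.5% ± 1.72. In quintile 3 it was lower in 3 of 3 lists too, by 0.866, 5.52 and 2.61 points. In quintile 1 the distant share was 38.4% ± 2.75, against 28.1% ± 2.45. The exact sign-flip permutation p was 0.25 for each quintile.

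**Figure D3:**
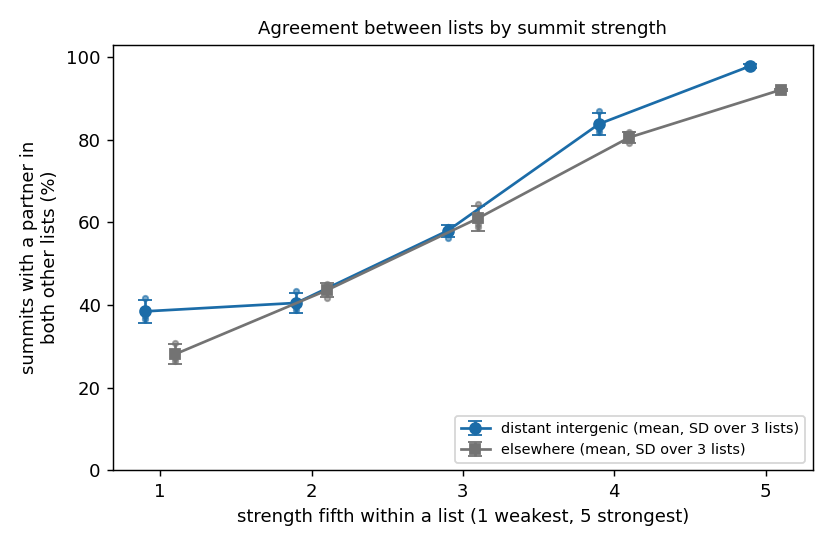
Share of summits (%) matched at most 250 bp away in each of the other lists, by strength quintile within a list, for distant intergenic summits and for summits elsewhere; small points are the 3 lists, and bars are 1 SD over them. Distant summits are higher in quintile 5 (97.8 against 92.1%) and quintile 1 (38.4 against 28.1%), and lower in quintiles 2 and 3.

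The distance from the nearest protein-coding gene ran up to 26879 bp with a median of 1769 bp. There were 293 regions at 1000 to 1500 bp, 173 at 1500 to 2000 bp, 206 at 2000 to 3000 bp and 98 at 3000 to 5000 bp. There were 29 at 5000 to 10000 bp and 2 beyond. Median strength was higher at 3000 to 5000 bp than next to the limit in each list, and mixed farther out. In replicates 1, 2 and 3 the median was 11.4, 9.50 and 10.4 at 1000 to 1500 bp, and 13.2, 12.2 and 13.5 at 3000 to 5000 bp. At 5000 to 10000 bp it was 11.1, 13.6 and 11.3 over 29 regions.

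The number of regions per Mb of sequence at each distance did fall, and it depended on where on the chromosome the sequence lay. Outside protein-coding genes, sequence and regions inside non-coding RNA genes were left out of these counts. All regions inside protein-coding genes were counted. On each chromosome the 3 Mb stretch poorest in protein-coding genes was set apart as a gene-poor window. Outside these windows there were 62.6 regions per Mb at 1000 to 1500 bp from genes, 56.4 at 1500 to 2000 bp and 57.4 at 2000 to 3000 bp. These densities were above the 49.8 per Mb inside protein-coding genes and below the 127.2 per Mb in the 500 bp next to them. They dropped to 33.1 per Mb at 3000 to 5000 bp, 12.9 at 5000 to 10000 bp and 0.994 beyond.

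In the 5 gene-poor windows, which hold 42.4% of all distant sequence (12.6 of 29.6 Mb), only 14 of the 801 regions were found (1.75%), or 1.11 per Mb against 46.1 per Mb in the rest. The density also differed at like distances: at 1000 to 1500 bp from a gene there were 6.78 regions per Mb in the windows and 62.6 outside them. The 14 had a median strength of 11.4, 12.8 and 7.93 in the 3 lists, against 12.0, 10.5 and 11.4 for the 787 in the rest. How much of the windows' sequence could take a uniquely placed read was not examined, and these densities have no replicate error.

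**Figure D4:**
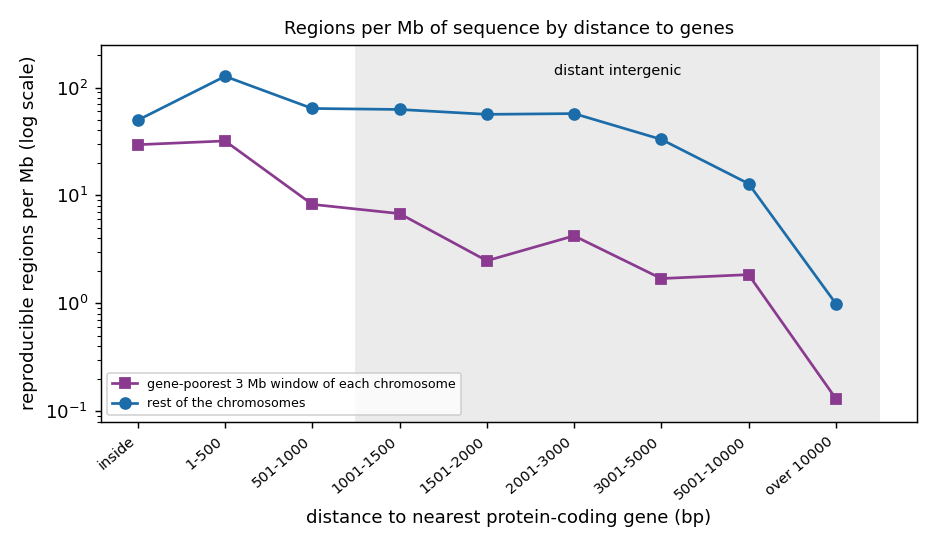
Reproducible regions per Mb of sequence (log scale) by distance to the nearest protein-coding gene (bp), in the gene-poorest 3 Mb window of each chromosome and in the rest; the shaded distances are those of the distant intergenic regions. Outside the windows the density stays between 56.4 and 62.6 per Mb from 1000 to 3000 bp and falls to 0.994 beyond 10000 bp, and it is lower in the windows at every distance.

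By chromosome there were 206, 145, 151, 120 and 179 distant regions on chromosomes 1 to 5, 11.2 to 14.3% of each chromosome's reproducible regions, with the highest share on chromosome 2. Of the 6064 gaps of over 2000 bp between protein-coding genes outside the gene-poor windows, 645 held a distant region (10.6%). The share was 2.86% of gaps of 2000 to 3000 bp, 11.4% at 3000 to 5000 bp, 20.1% at 5000 to 10000 bp and 17.4% above that. Longer gaps hold more distant sequence, so the first steps of this order follow in part from the definition.

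The 10 regions farthest from protein-coding genes had mean strengths from 4.18 to 55.9. The farthest, at position 10240477 of chromosome 5 and 26879 bp from AT5G28237, had 26.5, 25.2 and 35.6 in the 3 lists, and lay 704 bp from the non-coding RNA gene AT5G28262. The next, at position 15880501 of chromosome 1, had 18.0, 12.5 and 14.8 and lay 10780 bp from AT1G42430. The strongest of the 10 was the region between AT5G19090 and AT5G19100, at position 6399574 of chromosome 5, with 51.2, 49.7 and 66.9. It lay 8433 bp from the nearer gene but 53 bp from the long non-coding RNA gene AT5G02985.

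A pair of the 10 lay on the same side of the microRNA gene MIR396b, in the gap between AT5G35405 and SOS2. The one 809 bp from MIR396b had 19.6, 19.8 and 17.8, and the one at 2346 bp had 10.7, 10.4 and 7.33. The others lay in the gap between TCP10 and CLE4 (13.9 ± 3.40), in the gap left of the nitrate reductase gene NIA2 (11.1, 8.43 and 5.95 in the 3 lists), near AT5G28150 (7.28 ± 0.247), near AT2G10440 (5.26 ± 2.05) and near AT1G38131 (4.18 ± 0.925).

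Few distant regions lay inside pseudogenes, a class that in the gene table includes transposon-derived loci. There were 7 (0.874%), against 21 of 5484 other regions outside non-coding RNA genes (0.383%). The one in AT1G05135, at position 1477795 of chromosome 1, was strong, with 32.0, 35.0 and 40.1. The other 6 had means of 3.52 to 5.67, the highest of them in AT1G43997 and the lowest in AT2G24660. Most of the 5484 regions used for comparison lay inside protein-coding genes or within 500 bp of them. How much distant sequence lies inside pseudogenes was not computed, so the higher share is not shown to be an excess.

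Non-coding RNA genes lay within 1000 bp of 112 distant regions (14.0%), against 11.7% of the other regions outside such genes. Long non-coding RNA genes made up 72 of the 112. MicroRNA genes lay within 1000 bp of 11 distant regions, 1.40% of those outside the gene-poor windows, where 1.06% of distant sequence lies that close to such a gene. For long non-coding RNA genes the shares were 9.02% of regions and 7.35% of sequence, and for tRNA genes 1.14% and 0.612%. A tRNA gene was the nearest non-coding RNA gene within 1000 bp for 8 distant regions (0.999%), against 118 of the other regions (2.15%), so that comparison ran the other way. No error can be given for these shares.

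The 11 microRNA genes were named after their values were seen. The strongest region lay by MIR167a, whose product targets auxin response factor transcripts, at 264 bp, with 30.1, 22.1 and 26.3. MIR166a, which targets class III homeodomain-leucine zipper transcripts, lay 228 bp from one of 26.0, 11.0 and 12.4. MIR159a, which targets MYB transcripts, lay 296 bp from one of 16.0, 8.03 and 21.9, and MIR163 lay 406 bp from one of 20.0, 19.2 and 18.8. The closest of all, MIR161, lay 124 bp from a region of 18.9, 5.98 and 12.9, and MIR405a lay 203 bp from one averaging 10.9. The region by MIR396b is given above. Those by MIR167c, MIR779, MIR399c and MIR404 were weaker, with means of 5.56 to 7.69.

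Most distant regions stood alone in their gap, and the rest came in groups. The 801 regions lay in 658 gaps between protein-coding genes, of which 537 held 1 region, 104 held 2 and 17 held 3 to 5. Chaining regions at most 10000 bp apart left 488 alone (60.9%) and put 313 into 138 clusters, 31 of them with 3 or more regions. No such share is given for the other reproducible regions.

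The most crowded gap, 11907 bp between AT4G16770 and HB-2, held 5 regions. HB-2 (also called ATHB-2) is a homeodomain-leucine zipper gene known for its fast induction by shade. The regions stood 1693, 3049, 4768, 5698 and 8332 bp from HB-2, and their mean strengths in that order were 28.5 ± 2.73, 33.5 ± 5.72, 36.0 ± 2.62, 34.5 ± 4.56 and 17.4 ± 5.86. In each list the region farthest from HB-2 was the lowest of the 5.

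The gap between GATA13 and ARF10 held 4 regions in 7626 bp, and 1 more lay on the other side of ARF10. From GATA13 on, the means were 31.1 ± 8.12, 50.2 ± 8.24, 32.9 ± 4.19 and 12.0 ± 6.35, and the one beyond ARF10 had 11.7 ± 4.47. The region at 50.2 was the highest of the 5 in each list. The gap of AT4G19700 (RING in the gene table) and AK-HSDH II, an aspartate kinase-homoserine dehydrogenase gene, held 4 regions with means of 39.3, 11.1, 10.6 and 5.16. The gap of AT3G60520 and GATA4 held 4 with means of 16.3, 10.6, 7.60 and 2.69.

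Clusters of 3 included the neighbourhood of DWF4. Besides the region at 66.5 ± 10.4, it held one of 29.0 ± 9.74 at 4069 bp on the other side of the gene and one of 11.8 ± 4.03 at 2211 bp. The gaps on both sides of AT5G60680 held the region of 53.2 ± 5.33 and, in the gap shared with the class III homeodomain-leucine zipper gene REV, regions of 23.9 ± 3.45 and 11.9 ± 3.27. Clusters of 3 regions were also found beside ANT (mean strengths 26.9, 10.3 and 4.80), a growth regulator of the AP2 family. Further ones lay beside TCP5, WES1, HB16, HAT22, MYB59 and JAG, the last with all 3 regions between 5.82 and 6.35.

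The 801 regions have 1279 flanking protein-coding genes, 4.66% of 27444. Of these flanking genes, 463 had a reproducible region of their own (36.2%), against 22.9% of all protein-coding genes. In reverse, 305 distant regions had no such region at either flanking gene, 391 had one at 1 of them and 105 at both. The share over all genes is a background for the count and not a test.

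Set against the region of the nearest gene, distant regions were about as often weaker as stronger. The nearest gene had a region of its own for 326 of the 801, and none for 475 (59.3%). Among the 326, the distant region was higher in all 3 lists at 114, lower in all 3 at 110 and mixed at 102. In single lists it was higher at 167, 166 and 167. The median strengths were 11.8 for the distant regions and 11.2 for the genes' own.

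Among the gene lists, those of hormone pathways held the most genes flanking a distant region: 8 of 14 matched genes of gibberellin and brassinosteroid and 9 of 20 of auxin, against 4.66% of all protein-coding genes. With the weaker summits of each list left out the auxin count was 5, and with a limit of 2000 bp the gibberellin and brassinosteroid count was 5. All 20 auxin genes and 10 of the 14 others border a gap of over 2000 bp, in which a distant region can lie at all. Of the 10761 protein-coding genes that do, 11.9% flanked a region. The meristem and leaf list counted 4 of 18, the seed and embryo list 2 of 9, the flowering list 2 of 13 and the H3K4 machinery list 1 of 10. No gene of the photosynthesis list (18), the light and clock list (21) or the rapid stress list (18) flanked a distant region, and 10, 10 and 13 of them border such a gap. With summits in at least 2 lists enough, 3 of these genes did. The lists are small, were chosen with results of these data known and were not tested.

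The brassinosteroid genes DWF4, CPD and BRI1 had some of the strongest of these regions, while BES1 and BZR1 flanked none. DWF4 was flanked by the region of 66.5 ± 10.4, which lay nearer to U1-70K, and the own region of DWF4 had 22.5 ± 4.48. CPD, a further brassinosteroid synthesis gene, had 54.3, 31.4 and 40.5 at a region 4653 bp away (position 1711601 of chromosome 5), against 13.9, 4.63 and 13.2 at its own. That distant region lay nearer to ATE1, at 1069 bp. The receptor gene BRI1 had 39.6, 24.0 and 41.8 at 1733 bp, against 31.5, 25.6 and 20.0 at its own, so the order was turned in replicate 2.

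Among gibberellin genes the DELLA gene RGL1 stood out, with 57.4, 31.1 and 31.2 at 4150 bp (position 24743955 of chromosome 1), against 5.28, 2.00 and 4.04 at its own region. The biosynthesis gene GA3OX1, with no region of its own, had 18.7, 11.4 and 17.2 at 3364 bp. The receptor genes GID1A and GID1B stood next to regions of 14.6 ± 4.68 and 8.01 ± 3.15, and GA20OX1 next to one of 5.81 ± 2.06. The region at GID1A lay 1631 bp from that gene and nearer to AT3G05110, at 1013 bp. At GID1B the gene's own region, with 10.1 ± 0.889, was higher than the distant one in each of the 3 lists.

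In the auxin list the conjugating enzyme gene GH3.5 (WES1 in the gene table) was flanked by 3 regions, the strongest with 46.2, 38.7 and 48.3 at 1068 bp (position 13652511 of chromosome 4). GH3.5 had no region of its own. ARF6, an activating auxin response factor gene, had 27.2, 28.9 and 36.7 at 2186 bp, against 27.4, 21.5 and 23.1 at its own region. At GH3.3 the order was the reverse, with 14.8, 16.7 and 17.8 at the distant region and 54.2, 51.1 and 40.8 at its own.

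IAA3 and IAA17, which are neighbours, share a gap, and so do IAA14 and IAA1, so these 4 auxin repressor genes stand for 2 gaps. The strongest region between IAA3 and IAA17 had 20.0, 12.0 and 3.77, and the one between IAA14 and IAA1 had 6.24, 9.75 and 7.33. The auxin synthesis gene YUC8 stood next to a region of 9.61 ± 1.86.

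WDR5A itself (AT3G49660) was flanked by a distant region. It lay 2751 bp from WDR5A and 1029 bp from AT3G49650, at position 18410813 of chromosome 3, and had 45.8, 28.3 and 37.6. The region next to WDR5A had 11.8, 9.60 and 5.01, lower in each of the 3 lists. No other matched gene of the H3K4 list flanked one.

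Of developmental genes, the floral MADS-box gene AP1 had 46.9, 42.8 and 41.5 at 2576 bp, against 16.9, 12.9 and 31.0 at its own region. The related gene FUL had 14.4, 16.0 and 11.8 at 2315 bp, against 3.69, 8.64 and 3.65. The embryo regulator genes LEC1 and LEC2, which PKL is known to repress, had no own region in these lists. The distant regions beside them had 21.0, 23.8 and 23.7 (2804 bp from LEC1) and 5.73, 6.46 and 9.32 (4095 bp from LEC2). In both cases LEC1 or LEC2 was the farther of the flanking genes. The KNOX genes KNAT1 (4535 bp) and KNAT6 (4517 bp), the leaf gene AS1 (2427 bp) and the CIN-type gene TCP10 (7418 bp) flanked regions too. At all but TCP10 the listed gene was the farther of the flanking genes. The lists read 12.5, 18.9 and 15.9 at KNAT1 and 18.7, 7.23 and 19.3 at KNAT6. The own region of KNAT6 had 12.1, 15.5 and 11.4, so the order was turned in replicate 2. The means were 9.56 ± 0.865 at AS1 and 13.9 ± 3.40 at TCP10.

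**Figure D5:**
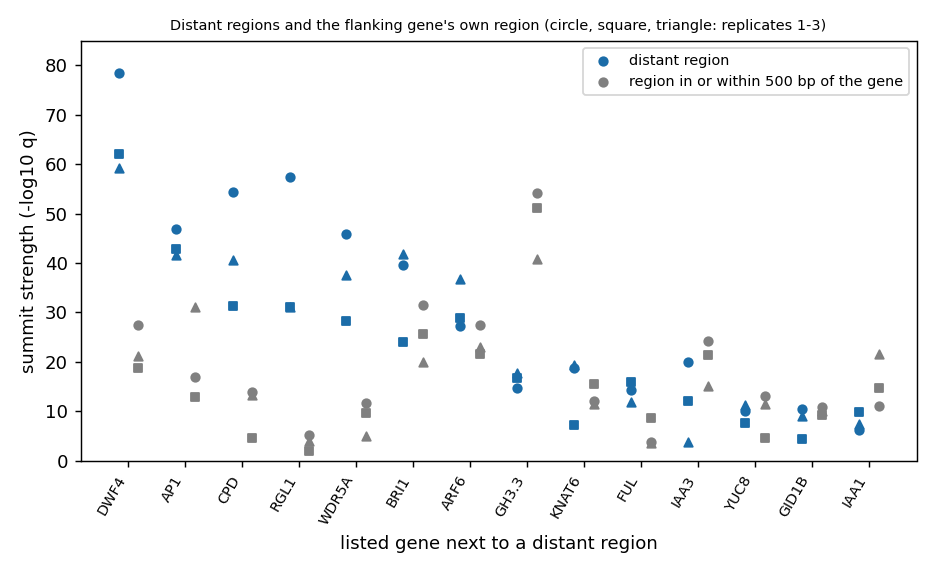
Summit strength (−log10 q) of the strongest distant region beside each of 14 listed genes, and of the gene's own strongest region in the gene or within 500 bp; circles, squares and triangles are replicates 1, 2 and 3. The distant region is higher in all 3 lists at 6 of the 14 genes and lower in all 3 at 4 of them (GH3.3, IAA3, IAA1 and GID1B).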

How the data were processed

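ChIP-seq was performed on whole Arabidopsis seedlings, and the files analysed here are 3 lists of 1 bp peak summits, 1 for each immunoprecipitated library. No list of the 3 inputs was analysed here. Summit strength is the deposited −log10 q, read as MACS2 writes it, with minima of 1.31, 1.33 and 1.30 just above the −log10 of 0.05 (1.30). The submitters' processing notes name the TAIR10 build, deepTools, fastp, MACS2 2.2.5 and Bowtie2 2.3.3. Peak thresholds, read filters and any role of the inputs were not given in the sources used here. The peak names carry the replicate number, so peaks were taken as called per library.

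The second BED column plus 1 gave the 1-based position. Summits at most 250 bp apart were chained, and a group with a summit of all 3 lists was placed at its median summit. Where a list had several summits in a group, its strongest was used. Genes came from the NCBI RefSeq table of assembly TAIR10.1 (37899 nuclear genes, 27444 protein-coding), and none of its coordinates is printed. With no shift, 49.6 to 53.4% of the regions on each chromosome stood at most 250 bp from the edge of a protein-coding gene, and with shifts over 200 bp (tried up to 5000 bp) at most 24.9% did. Shifts of 50 bp could not be told from none. The table gives no strand and no exons, and no genome sequence was used, so sequences, motifs and gene starts were not analysed.

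The lists are the replicates. Per-list differences were compared with an exact sign-flip permutation test (2-sided), whose smallest p with 3 lists is 0.25, so no difference here could pass a threshold of 0.05. The SD is over the 3 lists. The calculations were checked on simulated summits (Python 3.11.15, numpy 2.4.6, pandas 2.3.3). The members, the gene lists and the rule for naming regions were chosen with earlier results of these data known. By that rule the text names the 20 strongest regions, the 10 farthest from genes and the members at most 10 bp beyond the limit. It also names listed genes that flank a region. The rule further covers regions just short of the limit, regions inside pseudogenes and clusters of 3 or more. Of these only some are named. Of 146 listed genes, 141 matched exactly 1 protein-coding gene. 1 listed gene is counted but not reported here by name.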

Additional observations from a re-analysis of the deposited data

How the results depend on the processing

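The number of distant regions depended on the definition. A limit of 500 bp to genes gave 1294, a limit of 2000 bp gave 335, and leaving out the weaker summits of each list (below its median) gave 505, against 801. In the other 11 alternatives it stayed between 618 and 1091, with 888 to 894 when 1 replicate was left out. The difference in median strength kept its sign in 14 of 14 alternatives (0.483 to 2.98), as did the difference in agreement between lists in 13 of 13 (6.22 to 15.8 percentage points). The auxin count of 9 became 5 with the weaker summits left out, and the gibberellin and brassinosteroid count of 8 became 5 at a limit of 2000 bp; without any 1 replicate both were as reported (9 and 8). The count of 0 genes in the photosynthesis, light and clock and rapid stress lists became 1 with links of 500 bp, 9 at a limit of 500 bp, 1 with non-coding RNA genes not considered and 3 with summits in at least 2 lists. It was 0 to 2 with 1 replicate left out: 2 without replicate 1 and 1 without replicate 2. The counts on listed genes, and a reading of the positions without adding 1 (802 regions), were added after the data were seen. No paired analysis was possible because no list of the inputs was analysed here. Depth is unknown, so a place with no summit is one at which none was called.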
